A study of Mus musculus with 7 samples.

Results

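The muscle miRNAs miR-1, miR-206 and miR-133 were followed in small RNA libraries of sorted embryonic mouse spinal cells. Of the 1908 mature miRNAs in each deposited table, 5 rows were taken by name, namely mmu-miR-1a-3p, mmu-miR-206-3p, mmu-miR-206-5p, mmu-miR-133a-3p and mmu-miR-133b-3p (the species prefix is left out where it is clear). At E10.5, GFP-positive motoneurons and GFP-negative non-motoneuron spinal cells were sorted from Hb9::gfp embryos, with 2 libraries of each. At E12.5, GFP-positive Hb9::gfp motoneurons, V2a interneurons (Chx10::cre;Rosa26::LSL::tdTomato) and V3 interneurons (Sim1::cre;Rosa26::LSL::tdTomato), both sorted as tdTomato positive, gave 1 library each. In all groups the sort rested on a reporter: GFP driven by Hb9 regulatory sequence, or tdTomato, which stays on in a cell and its descendants once Cre has acted. The GFP-negative fraction is thus every dissociated cell without GFP, of whatever type. The study concerned miR-218 in motoneurons, and the muscle miRNAs are described here in the same sorted fractions.

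miR-1 and miR-133 are made together from paired genes that are active in skeletal and cardiac muscle, while miR-206 and miR-133b come from a locus active in skeletal muscle. In muscle, miR-1 and miR-206 are known to favour differentiation of myoblasts and miR-133 is known for acting on their proliferation and on serum response factor. miR-206 is also known from denervated muscle, where it is linked to repair of the neuromuscular junction. A miRNA recognises its targets mainly through its seed, bases 2 to 8, so miRNAs with 1 seed are grouped as a family, and miR-1 and miR-206 form such a family.

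RefSeq (GRCm38.p6) held mature sequences for 3 of the 5 members. They are shown with the seed in capitals, because the seed sets the family. The strand made opposite miR-1a-3p from Mir1a-1 on chromosome 2, miR-1a-1-5p (chr2:180389057-180389079, plus strand), is set beside miR-206-5p.
miR-206-3p: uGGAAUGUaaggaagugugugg
miR-206-5p: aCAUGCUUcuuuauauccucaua
miR-1a-1-5p: aCAUACUUcuuuauaugcccaua
miR-133b-3p: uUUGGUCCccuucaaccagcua
Counted from 1 at the 5′ end of miR-206-5p, miR-1a-1-5p differed from it by G5A, C17G and U19C, so 20 of 23 bases were identical. The first of these changes lies in the seed. Among the 1679 mature mouse sequences of the RefSeq table used here, which hold 3 of the 5 members, miR-6349 and miR-6382 also carry the miR-206-3p seed. Neither of these reached 4 RPM or 3 TPM in any library, so neither added much to the family's reads.

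Both arms of miR-206 come from the Mir206 hairpin (chr1:20679010-20679082, plus strand, 73 bases), shown with the arms in capitals.
Mir206: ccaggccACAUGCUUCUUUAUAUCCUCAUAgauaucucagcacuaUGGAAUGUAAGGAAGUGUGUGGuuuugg
Mir133b (chr1:20682769-20682887, plus strand, 119 bases) lies further along the same strand, with 3686 bases between the hairpins.
Mir133b: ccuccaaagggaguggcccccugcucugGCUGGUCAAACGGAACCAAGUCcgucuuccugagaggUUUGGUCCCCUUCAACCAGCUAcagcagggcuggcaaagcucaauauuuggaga
Both hairpins lie within the lincRNA gene Gm28653 (GENCODE M21, chr1:20669882-20684298). Mir133b lies in exon 3 of its spliced transcript. Mir206 lies in an intron of that transcript, and 60 of its bases overlap the only exon of a second, unspliced transcript.

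The libraries held 493236 to 802743 reads at E10.5, where levels are RPM (reads per 1000000 reads), and about 3603566 to 4605739 at E12.5, where levels are TPM (the deposited values rescaled to sum to 1000000). The stages were deposited in separate tables that were scaled separately, so stage and table cannot be told apart and no test crosses them. A count of 0 allows up to 3 reads, equal to 3.74 to 6.08 RPM in the E10.5 libraries and to 0.667 to 0.844 TPM in the E12.5 ones. Such floors are a fixed 3 reads, and the counting intervals below are 95% exact intervals (Clopper-Pearson). Both cover counting error only. The labels do not tell whether replicates are separate litters or sorts; the p-values therefore reflect only library-to-library spread, possibly technical. The motoneuron label was set against 1 marker, miR-218-5p, which the study itself concerned, so this is no independent check of the sort. At E10.5 miR-218-5p stood at 177885 and 200305 RPM in motoneurons, against 6623 and 7315 RPM in GFP-negative cells. At E12.5 it stood at 104198 TPM in motoneurons, against 7558 in V2a and 7282 in V3.

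**Figure D1:**
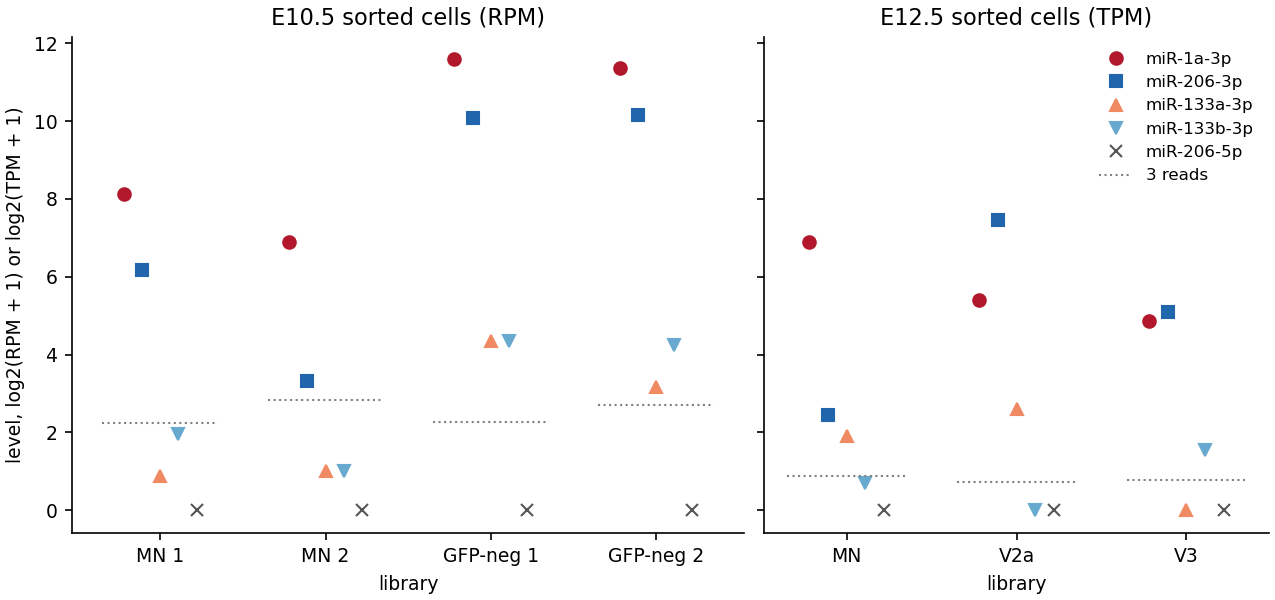
Level of each of the 5 muscle miRNAs in each library, as log2(RPM + 1) at E10.5 (left) and log2(TPM + 1) at E12.5 (right), with 1 point per library; MN stands for motoneurons and the dotted line marks 3 reads. At E10.5 miR-1a-3p and miR-206-3p lay lower in both motoneuron libraries than in both GFP-negative ones, and at E12.5 miR-206-3p had 4.50 TPM in the motoneuron library and 175 TPM in that of V2a cells.

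The first comparison asked how E10.5 motoneurons differed from GFP-negative spinal cells of the same genotype and stage. miR-1a-3p and miR-206-3p were lower in motoneurons. miR-133b-3p was rare and entered the test only through its level in GFP-negative cells, miR-133a-3p was too rare to test and miR-206-5p had no reads. The 5 rows together summed to 355 and 130 RPM in the motoneuron libraries, against 4192 and 3796 RPM in the GFP-negative libraries. As a share of all miRNA reads this was 0.0355% and 0.0130% in motoneurons and 0.419% and 0.380% in GFP-negative cells. The groups did not overlap, and the mean sum was 16.5-fold lower in motoneurons. In such sorted bulk samples, fewer cells of a type and less RNA per cell cannot be told apart.

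mmu-miR-1a-3p, the main miR-1 strand of heart and skeletal muscle, was the most abundant member in all 4 E10.5 libraries. It had 280 and 119 RPM in motoneurons, against 3076 and 2625 RPM in GFP-negative cells. It ranked 156th and 224th among all rows in the motoneuron libraries, and 59th and 67th in the GFP-negative libraries. The mean of 200 ± 114 RPM in motoneurons was 14.3-fold below the 2850 ± 319 RPM of GFP-negative cells (SD, n = 2 each). On the log2(RPM + 1) scale the change was -3.95 (SE 0.38, limma adjusted p = 0.000555). Without motoneuron replicate 1 it was -4.57, and without replicate 2 it was -3.34.

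mmu-miR-206-3p, the skeletal muscle member of the family, changed most. It had 71.3 and 8.95 RPM in motoneurons, against 1078 and 1145 RPM in GFP-negative cells. The GFP-negative libraries lay close together and the motoneuron libraries lay 7.96-fold apart, so the size of the change rests on which motoneuron library is read. Replicate 2 held about 4 reads of it and replicate 1 about 57, against 838 and 617 reads in the GFP-negative libraries. The mean of 40.1 ± 44.1 RPM in motoneurons was 27.7-fold below the 1112 ± 48.0 RPM in GFP-negative cells (SD, n = 2 each). On the log2 scale it changed by -5.37 with an SE of 0.81 (limma adjusted p = 0.00265). It was -6.80 without motoneuron replicate 1 and -3.94 without replicate 2. Without replicate 1, its only motoneuron value, 8.95 RPM, lay under the 15.2 RPM needed for testing. In that fit miR-206-3p was tested only through GFP-negative cells and could only be lower.

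The table places miR-1a-3p and miR-206-3p in 1 bundle, a set of rows that share reads, together with miR-1b-5p. How reads were divided between them was settled before deposit and is uncertain. The bundle's sum does not depend on that division: it came to 293 and 72.0 reads in the motoneuron libraries and 3242 and 2042 reads in the GFP-negative libraries, whole numbers to within 0.05. In RPM the sum was 365 and 146 in motoneurons, against 4170 and 3791 in GFP-negative cells. With all bundles summed before the fit, the bundle changed by -4.10 (SE 0.41, limma adjusted p = 0.00114), and by -4.76 and -3.44 without motoneuron replicate 1 and 2. Of 420 bundles tested, 29.5% were called lower. The third row of the bundle, miR-1b-5p, behaved otherwise: it had 13.6 and 18.1 RPM in motoneurons, against 16.5 and 20.6 RPM in GFP-negative cells. These ranges overlap, and the log2 change, -0.22 with an SE of 0.42 (limma adjusted p = 0.705), turned to 0.11 when libraries were scaled by the median of ratios.

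mmu-miR-133b-3p, made from the same locus as miR-206, was rare. It had 2.91 and 1.01 RPM in motoneurons, against 19.3 and 17.95 RPM in GFP-negative cells. The motoneuron values lie under the level of 3 reads. Its log2 change was -2.81 (SE 0.52, limma adjusted p = 0.0059). It passed the abundance filter, at least 15.2 RPM in 2 libraries, only through the GFP-negative group, so a call could only be in the lower direction and is no support of its own. It missed the threshold under quantile normalization (-1.57, limma adjusted p = 0.0603) and could not be tested without either GFP-negative library.

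mmu-miR-133a-3p, which is made alongside miR-1a, had 0.83 and 1.01 RPM in motoneurons, against 19.3 and 8.05 RPM in GFP-negative cells, and did not pass the filter. It shares a bundle with miR-133b-3p. Summed, the pair held 3 reads and 1 read in the motoneuron libraries and 30 and 14 reads in the GFP-negative libraries. Over both libraries of a group this was 4 reads in motoneurons against 44 in GFP-negative cells, a level 10.8 times as high in GFP-negative cells (95% counting interval 3.94 to 41.5). The summed bundle changed by -3.11 on the log2 scale (SE 0.48, limma adjusted p = 0.00447), and like miR-133b-3p it was tested only through the GFP-negative group. The opposite strand, miR-133a-5p, lies in a bundle of its own. It was at 0 in both motoneuron libraries, against 7.72 and 7.43 RPM in GFP-negative cells, about 6 and 4 reads. With 3 reads over both motoneuron libraries as the floor, miR-133a-5p was 3.27-fold lower there. That figure leaves out the counting error of the GFP-negative reads. mmu-miR-206-5p, the opposite strand of miR-206, was at 0 in all 7 libraries, although miR-206-3p reached 838 reads.

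**Figure D2:**
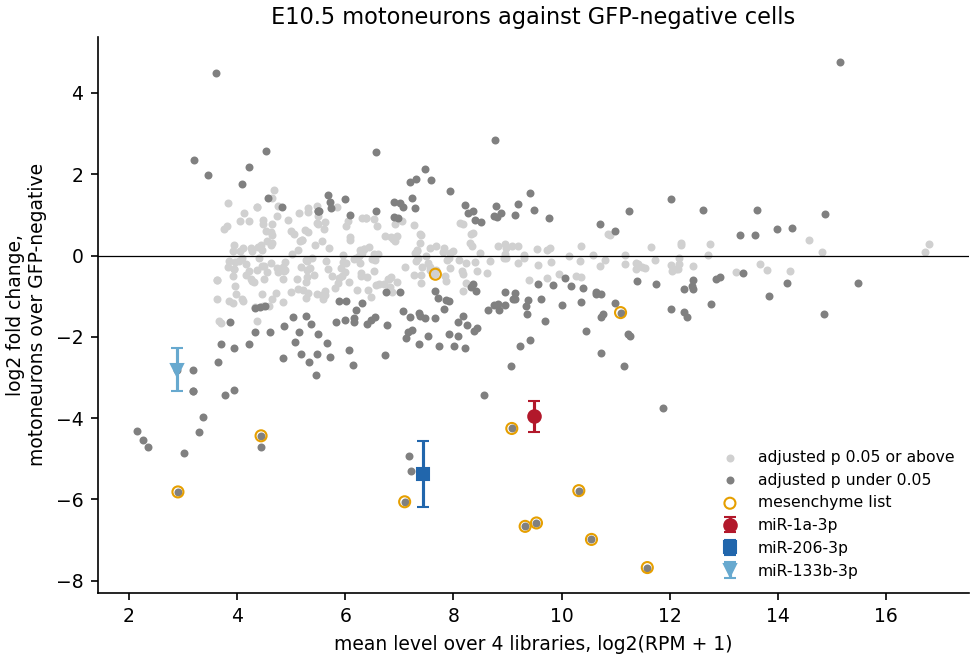
Log2 fold change of motoneurons over GFP-negative cells against the mean level over the 4 E10.5 libraries, 1 point for each of 492 miRNAs tested; bars on the muscle miRNAs are 1 SE and orange rings mark the mesenchyme list. miR-1a-3p (-3.95), miR-206-3p (-5.37) and miR-133b-3p (-2.81) lie below most points. The mesenchyme list has a median of -5.82, the value of miR-145a-3p. Both miR-145a-3p and miR-133b-3p were tested only through the GFP-negative group.

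Of 492 miRNAs tested at E10.5, 151 (30.7%) were called lower in motoneurons and 57 (11.6%) higher, 42.3% in either direction (limma, Benjamini-Hochberg adjusted p under 0.05). Ordered from the most negative log2 fold change, miR-206-3p stood 8th, miR-1a-3p 20th and miR-133b-3p 28th. The split between higher and lower depended on the scaling, since the median log2 fold change of all tested miRNAs was -0.34 and became -0.00 with the median of ratios, where 94 were higher and 116 lower. Under that scaling miR-1a-3p had -3.61, miR-206-3p -5.04 and miR-133b-3p -2.53, all still called lower. The rank and call of miR-133b-3p are no support, because it was tested only through the GFP-negative group and could only be lower.

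Other muscle miRNAs were sparse. Of 13 further rows of the miR-1, miR-133, miR-208 and miR-499 groups, 10 were at 0 in all 4 E10.5 libraries and the highest value of any was 20.6 RPM. Only miR-1b-5p passed the filter, and none was called in either direction. miR-499-5p, from an intron of a myosin gene, had 3.74 and 8.11 RPM in motoneurons, against 6.43 and 3.71 RPM in GFP-negative cells, values that overlap and amount to 5 reads or fewer. The miR-208 rows, which come from cardiac myosin genes, were at 0 throughout E10.5.

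Markers of mesenchyme and smooth muscle moved with the muscle miRNAs. Over all 492 miRNAs tested, 30.7% were called lower in motoneurons. Of 11 rows of the mesenchyme list, 10 were called lower in motoneurons and none higher, with a median log2 fold change of -5.82. Of these, miR-145a-5p and miR-145a-3p passed the abundance filter only through the GFP-negative group, so they could only be called lower. The median is the value of miR-145a-3p. The list summed to 3230 and 1796 RPM in motoneurons, against 85261 and 97904 RPM in GFP-negative cells, and miR-145a-3p alone was at 0 in both motoneuron libraries. The sum was thus 36.4-fold lower, a larger factor than that of the 5 muscle miRNAs. In motoneurons the muscle sum was 10.995% and 7.23% of the mesenchyme sum, and in GFP-negative cells 4.92% and 3.88%. Motoneuron replicate 1 exceeded replicate 2 by 2.74-fold in the muscle sum and by 1.80-fold in the mesenchyme sum. The largest mesenchyme row in motoneurons was miR-140-3p, at 1482 and 1206 RPM, against 3659 and 3423 RPM in GFP-negative cells. Its log2 change was -1.40, while miR-199b-3p, at 545 and 83.1 RPM in motoneurons, changed by -7.68. The fold, motoneuron percentages and replicate ratio of the mesenchyme sum therefore depend strongly on miR-140-3p. miR-199a-3p changed by -4.25, though it holds the same value as miR-199b-3p in motoneuron replicate 2 and in every E12.5 library. How reads were divided between these rows at E10.5 is uncertain, so they may not count as separate rows. The part of muscle and mesenchymal cells in the result was not tested.

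The 3 sensory neuron rows were all called lower (median -1.99), and their sum was 1971 and 2325 RPM in motoneurons, against 9171 and 9535 RPM in GFP-negative cells. Of 4 epithelial rows tested, 2 were lower (1 with the median of ratios), with the 6 rows summing to 68.5 and 109 RPM in motoneurons, against 205 and 468 RPM in GFP-negative cells. Endothelial miR-126a-3p was called lower, with -1.07 on the log2 scale (SE 0.32, limma adjusted p = 0.0344), and was not called with the median of ratios. Of 5 blood rows only miR-486-5p was tested, and it was not called, at 99.0 and 72.0 RPM in motoneurons, against 64.3 and 89.6 RPM in GFP-negative cells. The other 4, miR-451a among them, were too rare to test and summed to 13.7 and 0 RPM in motoneurons, against 39.9 and 21.7 RPM in GFP-negative cells. Of 5 neuronal rows tested, 2 were higher in motoneurons. Over all 492 miRNAs tested, 30.7% were lower and 11.6% higher. Lists with 5 or fewer rows tested are too short to set against these shares.

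**Figure D3:**
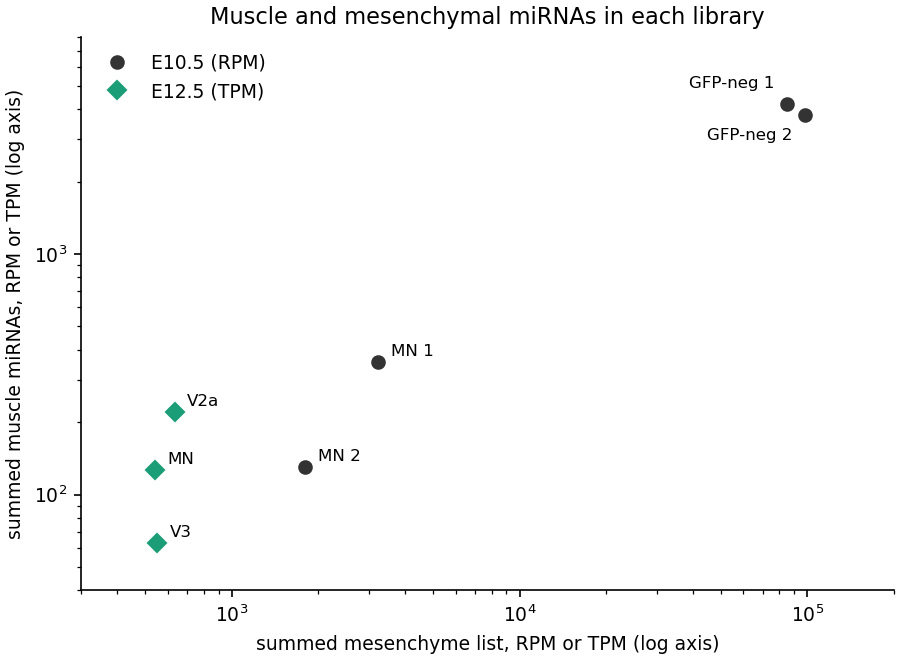
Sum of the 5 muscle miRNAs against the sum of the 11 mesenchyme rows in each library, both on log axes, in RPM at E10.5 (circles) and TPM at E12.5 (diamonds). The E10.5 GFP-negative libraries stand highest on both axes, while the E12.5 libraries differ little in the mesenchyme sum (542 to 633 TPM) and more in the muscle sum (63.0 to 221 TPM). The E12.5 mesenchyme sums depend strongly on miR-140-5p and miR-140-3p, which were lowest in V3.

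The miRNAs most like miR-206-3p at E10.5 were sought as the 5 nearest profiles over the 4 libraries, by Euclidean distance between centred log2(RPM + 1) values and outside the members' bundles. They were miR-483-3p (distance 0.97), miR-483-5p (1.04), miR-214-5p (1.05), miR-152-5p (1.18) and miR-143-3p (1.27). Mir483 lies in the Igf2 gene, and miR-214 and miR-143 belong to the mesenchyme list. miR-483-3p had 41.1 and 12.2 RPM in motoneurons, against 1150 and 756 RPM in GFP-negative cells. miR-214-5p had 29.9 and 8.11 RPM in motoneurons, against 993 and 1257 RPM in GFP-negative cells.

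At E12.5 the question was whether the muscle miRNAs differed between motoneurons and the V2a and V3 interneurons. With 1 library per population there is no replicate check and no test. With the deposited division of their shared reads taken as given, miR-1a-3p and miR-206-3p went opposite ways. miR-1a-3p stood highest in motoneurons, and miR-206-3p stood highest in V2a and lowest in motoneurons. A ratio of at least 4 is called higher or lower here, with values under 3 reads raised to 3 reads, over 1012 miRNAs that reached 2.34 TPM in any library. The sum of miR-1a-3p and miR-206-3p, which does not depend on the division between them, passed 4-fold in no comparison. Its ratio was 0.57 for motoneurons over V2a, 2.01 for motoneurons over V3 and 3.53 for V2a over V3.

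miR-1a-3p had 118 TPM in motoneurons, 41.2 TPM in V2a cells and 28.1 TPM in V3 cells, or about 420, 185 and 117 reads. It was 2.87-fold higher in motoneurons than in V2a (95% counting interval 2.41 to 3.43) and 4.20-fold higher than in V3 (3.42 to 5.20). Only the ratio to V3 passed 4, where 12.8% of miRNAs were called higher in motoneurons. Without the 5 most abundant miRNAs in the totals, the log2 ratio over V3 was 1.23 in place of 2.07, so it no longer passed. Nor did it pass with the median of ratios (1.83) or a pseudocount of 10 TPM (1.75), and its counting interval includes 4. V2a stood 1.47-fold above V3 (1.15 to 1.86), and that difference was nearly gone with the median of ratios (log2 ratio 0.03 in place of 0.55).

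miR-206-3p had 4.50 TPM in motoneurons, 175 TPM in V2a cells and 32.9 TPM in V3 cells, or about 16, 785 and 137 reads. Its level was 38.8 times as high in V2a as in motoneurons (23.7 to 68.2) and 7.32 times as high in V3 as in motoneurons (4.35 to 13.2). In motoneurons over V2a it had the lowest ratio of all 1012 miRNAs, where 11.8% were called lower in motoneurons. In motoneurons over V3 it stood 19th from the lowest, where 5.14% were called lower. V2a exceeded V3 by 5.30-fold (4.42 to 6.40), where 16.9% were called higher in V2a and 4.84% lower. With the median of ratios that log2 ratio was 1.88 in place of 2.41, and no longer passed. With a pseudocount of 10 TPM the log2 ratio of motoneurons over V3 was -1.57 in place of -2.87, and no longer passed.

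**Figure D4:**
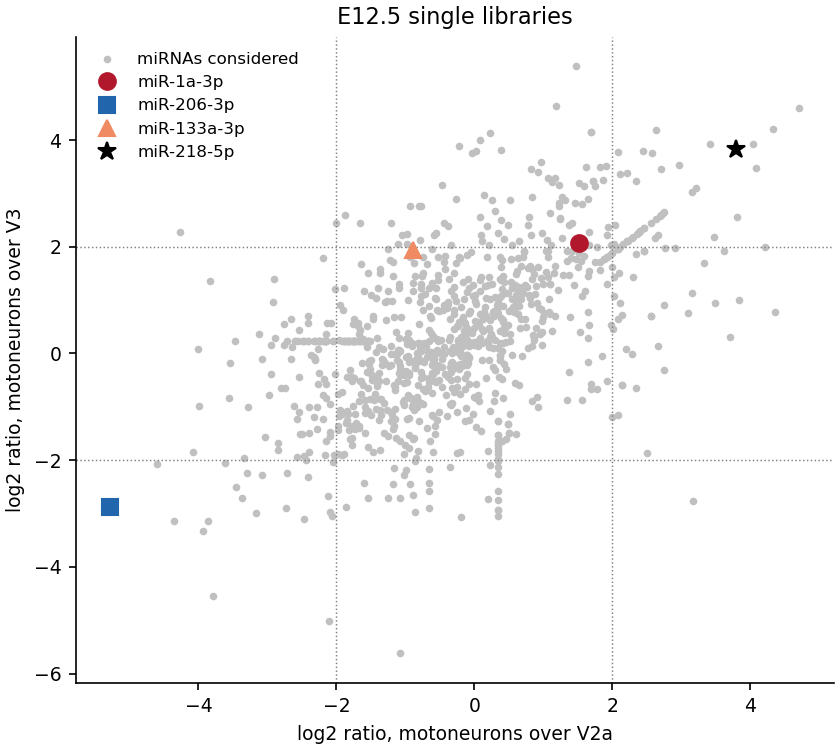
Log2 ratio of motoneurons over V3 against that of motoneurons over V2a for 1012 miRNAs at E12.5, 1 library per population, with values under 3 reads raised to 3 reads; dotted lines mark a 4-fold difference. miR-206-3p lies at the far left (-5.28 and -2.87), and miR-1a-3p lies on the side of miR-218-5p (1.52 and 2.07).

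The makeup of the pair therefore differed widely among libraries. miR-206-3p made up 3.67% of the reads of miR-1a-3p plus miR-206-3p in E12.5 motoneurons (95% interval 2.11% to 5.89%), 80.9% in V2a (78.3% to 83.4%) and 53.9% in V3 (47.6% to 60.2%). At E10.5 it made up 20.3% and 7.001% in the motoneuron libraries, against 25.9% and 30.4% in the GFP-negative libraries. The interval of motoneuron replicate 1 (15.7% to 25.4%) meets that of GFP-negative replicate 1 (24.4% to 27.5%), and those of the 3 E12.5 libraries do not meet. These intervals take the deposited division of shared reads as given. The sum of the pair differed less at E12.5, at 123 TPM in motoneurons, 216 TPM in V2a cells and 61.1 TPM in V3 cells.

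**Figure D5:**
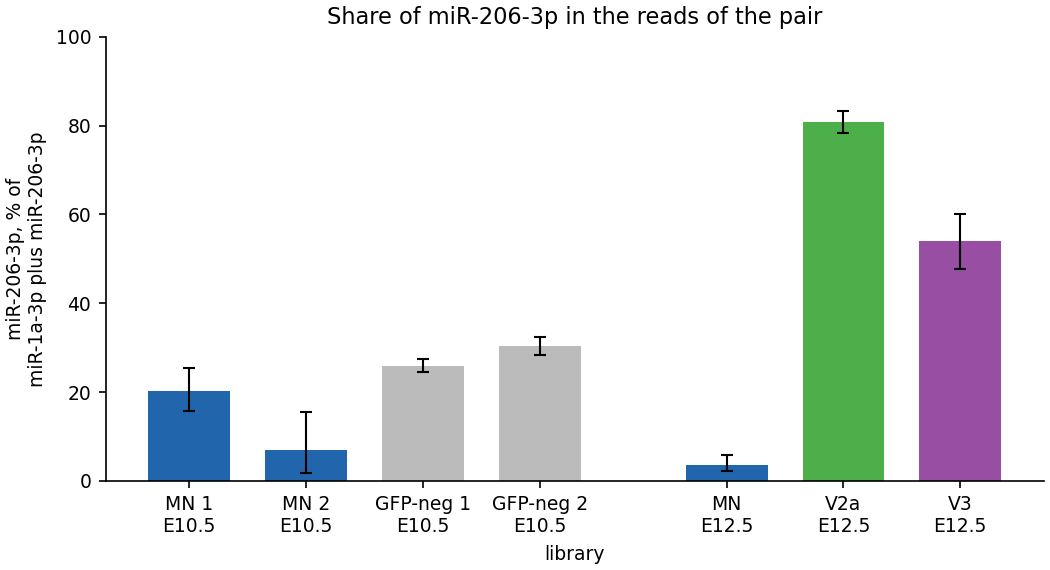
miR-206-3p as a percentage of the reads of miR-1a-3p plus miR-206-3p in each library, with bars for the 95% exact binomial interval, which covers counting error only. The share was lowest in E12.5 motoneurons (3.67%) and highest in E12.5 V2a interneurons (80.9%).

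The miR-133 members were near the limit of counting at E12.5. miR-133a-3p had 2.78 TPM in motoneurons, 5.12 in V2a and under 1 read in V3. miR-133b-3p had 0.63 TPM in motoneurons, 0 TPM in V2a cells and 1.92 TPM in V3 cells. The division of reads within the pair is uncertain, and only its sum is compared. The sum of about 12, 23 and 8 reads differed between motoneurons and V2a by less than counting error (ratio 0.67, interval 0.30 to 1.38), likewise between motoneurons and V3 (1.77, 0.66 to 4.95). V2a exceeded V3 by 2.66-fold (1.15 to 6.88).

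At E12.5 the mesenchyme list summed to 542 TPM in motoneurons, 633 TPM in V2a cells and 549 TPM in V3 cells. Of its 11 rows, 1 was highest in motoneurons, 6 in V2a and 4 in V3. The V3 count includes both miR-199a-3p and miR-199b-3p. These rows hold the same values at E12.5, at 17.0 TPM in motoneurons, 13.5 TPM in V2a cells and 41.1 TPM in V3 cells. Highest in V2a was miR-199b-5p, at 2.13 TPM in motoneurons, 9.80 TPM in V2a cells and 3.66 TPM in V3 cells. Highest in V3 was miR-199a-5p, at 21.8 TPM in motoneurons, 15.9 TPM in V2a cells and 66.7 TPM in V3 cells. Among the blood rows, miR-486-5p stood at 110 TPM in motoneurons, 33.9 TPM in V2a cells and 6.17 TPM in V3 cells, and the other 4 summed to 2.68 TPM in motoneurons, 1.11 TPM in V2a cells and 2.40 TPM in V3 cells. The 2 endothelial rows summed to 177 TPM in motoneurons, 405 TPM in V2a cells and 174 TPM in V3 cells. The part of other cell types in the E12.5 levels was not tested.

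The 5 miRNAs whose centred log2(TPM + 1) profile lay nearest to that of miR-206-3p over the 3 E12.5 libraries were miR-8099 (distance 0.73), miR-7684-3p (1.01), miR-6964-5p (1.04), miR-6396 (1.22) and miR-6960-5p (1.31). miR-6396, the most abundant of them, had 12.3 TPM in motoneurons, 196 TPM in V2a cells and 24.5 TPM in V3 cells. The other 4 stood under 35 TPM in every library. None of the 5 was among the nearest at E10.5.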

How the data were processed

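Groups and replicate numbers were taken from sample titles. Per the submitters' processing notes reads were aligned with Bowtie2; no counting program, build or annotation is given in the sources used here. For E10.5, the table as deposited by the authors holds RPM, summing to 1000000 in each library. The E12.5 table names no unit; its values as deposited were read as FPKM, because low values fall on steps set by length, and were rescaled here to a sum of 1000000 (TPM). Depth came from the value of 1 read, at a length of 22 nt for E12.5. In single-row bundles 97.3% to 100% of low E10.5 values were whole reads within 0.05, but shared rows hold fractions of reads, so the planned count-based test on recovered reads was not run.

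Motoneurons and GFP-negative cells were set against each other by limma's moderated test (version 3.58.1, R 4.3.3; trend in the prior variance; two-sided) of log2(RPM + 1) values, without a replicate block. Rows were tested if they reached 15.2 RPM, that is 10 reads in a library of median depth, in 2 or more libraries; p-values were adjusted by Benjamini-Hochberg over all 492. The pseudocount makes changes of low miRNAs look smaller than they are. The procedure was tested on simulated data only with libraries scaled by the median of ratios, not with the RPM scaling of the reported fit. E12.5 libraries were described only. Named miRNAs were the members, fixed marker lists and the 5 nearest profiles to miR-206-3p at each stage. Members and lists were chosen with earlier results of these data known. The alternatives were pseudocount, filter, scaling, summed bundles, replicate block and leaving out each library. Sequences came from RefSeq (GRCm38.p6) and loci from GENCODE M21.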

Additional observations from a re-analysis of the deposited data

How the results depend on the processing

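miR-1a-3p and miR-206-3p kept their direction and stayed past the threshold under all 13 alternatives, with log2 fold changes of -4.57 to -3.29 (limma adjusted p 8.97e-07 to 0.00487) and -6.80 to -3.94 (5.62e-05 to 0.00961). So did the summed bundle of this pair under 12 (-4.76 to -3.44) and that of the miR-133 pair under 10 (-3.44 to -1.70). miR-133b-3p kept its call under 10 of 11, with -3.29 to -1.26, and lost it under quantile normalization (-1.57, adjusted p = 0.0603). Leaving out 1 library gave -4.57 to -3.34 for miR-1a-3p, -6.80 to -3.94 for miR-206-3p and -3.29 to -2.33 for miR-133b-3p. Because miR-133b-3p and the miR-133 sum passed the filter only through the GFP-negative group, their kept calls are no support of their own. The same holds for the kept call of miR-206-3p without motoneuron replicate 1. The count of miRNAs called higher, 57, was 34 with no filter, 94 with the median of ratios, 101 with TMM factors, 105 with totals without the 5 most abundant and 114 under quantile normalization, where 100 in place of 151 were lower. Leaving out 1 library gave 27 to 48 higher and 106 to 125 lower. With the replicate block 67 were higher and 162 lower, and no member's call changed; the replicate 1 minus replicate 2 differences of the groups correlated at 0.26 over tested rows, and the samples share only a number. The summed members in GFP-negative replicate 2 were 3125 RPM with the median of ratios, against 3796.

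At E12.5 alternatives were run for the miR-1a-3p and miR-206-3p ratios, and none of these reversed. The log2 ratio of miR-1a-3p over V2a in motoneurons, 1.52, was 1.80 with the median of ratios and 0.87 without the 5 most abundant; over V3, 2.07, it was 1.23 without them, 1.83 with the median of ratios and 1.75 with a pseudocount of 10 TPM, each under 4-fold; V2a over V3, 0.55, was 0.029 with the median of ratios. With a pseudocount of 10 TPM, miR-206-3p had -3.67 over V2a, -1.57 over V3 and 2.10 for V2a over V3, and the last was 1.88 with the median of ratios, under 4-fold. The cause of these shifts was not tested. Depth limits the miR-133 rows, with at most 30 reads for the pair in any library. Without either GFP-negative library, miR-133b-3p and the miR-133 sum missed the filter and have no value. The planned count-based test was not run.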

Other observations

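Among the other muscle rows at E12.5, the highest was miR-1b-3p, with 0.40 TPM in motoneurons, 1.91 TPM in V2a cells and 4.5995 TPM in V3 cells. miR-208a-5p, from a cardiac myosin gene, had 1.69 TPM in motoneurons and 2.89 TPM in V2a cells but 0 in V3 cells, whereas miR-208a-3p had 3.12 TPM in V3 and 0 in motoneurons and V2a. miR-133a-5p had 0.29 TPM in motoneurons and 2.33 TPM in V2a cells and was at 0 in V3 cells. Of these 13 rows, miR-1a-1-5p and miR-133c were at 0 in all 7 libraries.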
